A study of Mus musculus with 18 samples.

Results

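The laminin chains and integrin subunits form the cell-to-matrix attachment system described here. They were taken as every row whose gene name is that of a laminin α, β or γ chain (Lama, Lamb, Lamc), an integrin α subunit (Itga) or an integrin β subunit (Itgb). This gave 38 of the 28684 genes in the count table, under 37 distinct symbols: 11 laminin chains, 19 rows of integrin α subunits and 8 integrin β subunits. Of these, 36 had at least 10 counts in 3 or more libraries and were tested, among 17514 such genes in all. The other 2 were Itgad, with at most 11 counts in any library, and a second row named Itgam (ENSMUSG00000108596), with 2 counts in total, whose exons share 3450 bases with the tested Itgam row.

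Bulk RNA was sequenced from 2 tissues of C57BL/6 mice, sciatic nerve and the dorsal root ganglia (DRG) at L3-L5. Mice had no disease, were at the peak of disease, labelled PID21, or were in recovery, labelled PID42. Sciatic nerve holds sensory axons with their Schwann cells, and DRG hold the bodies of these neurons. Each of the 6 groups of tissue and stage had 3 libraries, 18 in all, all from the same strain by the labels. The labels used here do not state how disease was induced, what PID abbreviates or how old the mice were. They also do not tie the 3 libraries of a group to separate animals, so every p-value reflects the spread among these libraries alone, which may be technical.

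Laminins are cross-shaped proteins of an α, a β and a γ chain that form the basement membrane around every Schwann cell, and Schwann cells need them to sort and myelinate axons. Integrins are receptors of an α and a β subunit that tie cells to laminin, collagen, fibronectin or, on leukocytes, to other cells. In peripheral nerve the Lama2 chain dominates the Schwann cell basement membrane, which is read by integrins with the β subunits Itgb1 and Itgb4 and by dystroglycan, while Itgb8 pairs with Itgav and activates latent TGF-β.

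Total counts per library ranged from 13686465 to 23435562. Levels are in CPM, counts scaled to a common library size by TMM. Each change is a log2 fold change with its SE, and each adjusted p comes from the quasi-likelihood test of edgeR after Benjamini-Hochberg adjustment, with values under 0.05 called. Marker genes followed the tissue labels: the 10 sensory neuron markers summed to 8546 to 12878 CPM over DRG libraries and 54.1 to 459 CPM over nerve libraries, and the 9 Schwann cell markers to 13791 to 28454 CPM in nerve. Within groups, nerve no disease replicate 1 had more neuron marker signal (459 CPM, against 195 and 107) and less Schwann cell marker signal (15567 CPM, against 28454 and 27337) than its fellow libraries. DRG recovery replicate 1 had 166 CPM of macrophage markers, against 319.9 and 299.6 in the other recovery libraries and 142 to 143 with no disease.

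The promoters shown here are those of the members around which the nerve results turn: Itgb8 and Itgax, which had the largest rises at peak, and Lamb1 and Lamb2, whose balance shifted. Each is the stretch of 250 bases just before the RefSeq start site on GRCm38.p6, written 5′ to 3′ on the strand of the gene. Capitals mark matches on either strand to GAGGAA (a core bound by the ETS factor PU.1), TGANTCA (the AP-1 site) or GGGCGG (the GC box bound by Sp-family factors), and no matches overlap.
Itgb8: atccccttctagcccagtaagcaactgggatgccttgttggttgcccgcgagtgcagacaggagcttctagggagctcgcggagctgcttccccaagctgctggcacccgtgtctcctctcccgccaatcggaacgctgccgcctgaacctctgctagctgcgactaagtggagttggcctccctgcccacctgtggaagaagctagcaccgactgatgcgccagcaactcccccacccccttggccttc
Itgax: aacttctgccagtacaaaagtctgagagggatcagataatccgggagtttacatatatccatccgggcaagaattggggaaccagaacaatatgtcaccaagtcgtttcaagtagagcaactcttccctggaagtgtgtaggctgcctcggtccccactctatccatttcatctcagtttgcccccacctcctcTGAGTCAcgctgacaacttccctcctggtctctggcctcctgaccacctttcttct
Lamb1: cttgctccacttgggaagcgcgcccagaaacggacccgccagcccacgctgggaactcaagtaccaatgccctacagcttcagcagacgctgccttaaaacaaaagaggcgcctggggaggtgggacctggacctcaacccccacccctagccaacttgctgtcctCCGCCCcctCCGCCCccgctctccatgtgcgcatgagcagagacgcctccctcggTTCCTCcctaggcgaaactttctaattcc
Lamb2: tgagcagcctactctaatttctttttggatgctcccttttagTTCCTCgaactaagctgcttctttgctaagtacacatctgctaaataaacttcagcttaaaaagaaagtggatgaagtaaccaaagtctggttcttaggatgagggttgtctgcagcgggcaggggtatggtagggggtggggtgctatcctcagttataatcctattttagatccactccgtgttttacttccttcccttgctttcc
Itgb8 (ENSMUSG00000025321) spans 119158022 to 119238802 on chromosome 12, Itgax (ENSMUSG00000030789) 128129547 to 128150657 on chromosome 7, Lamb1 31265234 to 31329644 on chromosome 12 and Lamb2 108479736 to 108490530 on chromosome 9, by the GRCm38 annotation. The Itgb8 window lies at chr12:119238277-119238526 on the minus strand, and holds none of the 3 motifs. It lies wholly inside the annotated gene, downstream of the annotated start at 119238802. The bases before that annotated start were not searched. The Itgax window lies at chr7:128129300-128129549 on the plus strand, with TGAGTCA from -56 to -50, where -1 is the base before the start site. The Lamb1 window lies at chr12:31265043-31265292 on the plus strand, and holds GC boxes from -84 to -79 and from -75 to -70 and a GAGGAA match from -29 to -24, all on the opposite strand. The Lamb2 window lies at chr9:108479612-108479861 on the plus strand, and holds 1 GAGGAA match from -208 to -203, on the opposite strand. RefSeq windows were at hand for 23 of the 37 symbols, 26 windows in all. GAGGAA was present in 13 of these 26, against 23.3% of 32851 promoters of the same length, GGGCGG in 9, against 32.7%, and TGANTCA in 1, against 6.7%. These are letter matches in this window and no measure of binding.

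With no disease, most members were expressed at a higher level in nerve than in DRG. Of 36 members, 29 were higher in nerve and 3 lower, where 73.8% of all genes tested were called (37% higher and 36.7% lower), and the members' median log2 difference was 1.87, against 0.0349 over all genes. Laminin chains (8 higher, 1 lower of 11), integrin α subunits (14 and 1 of 17 tested) and β subunits (7 and 1 of 8) shared this direction. In bulk tissue, fewer cells of a type and less RNA per cell cannot be told apart.

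Per kb of exon, with all 18 libraries on 1 scale, Itgb1, the β subunit of most laminin and collagen receptors, had the highest level in nerve (178, 174 and 166 CPM per kb) and in DRG (115, 115 and 120.0). In nerve it was followed by Itga6, the α subunit of Schwann cell laminin receptors (98.1 ± 20.8 CPM per kb, SD, n = 3), Lamb2 (91.8 ± 2.17) and Lamc1 (85.5 ± 8.41), which did not differ beyond their spread. Lamb1 (60.3 ± 6.95) and Lama2 (59.7 ± 10.2) came next, then Itgb4, which pairs with Itga6 on the outer surface of myelinating Schwann cells (47.6 ± 2.69), and Itgb8 (43.4 ± 5.32). In DRG the order after Itgb1 was different: Itgb8 (25.5 ± 1.26 CPM per kb), then Itga7, a laminin receptor α subunit of muscle and regrowing axons (17.5 ± 1.97), Itga6 (16.9 ± 1.54), Lamb1 (16.3 ± 1.33) and Lamc1 (14.0 ± 0.895). The libraries of Itga7, Itga6 and Lamb1 overlapped and those of Lamc1 all lay below those of Lamb1, while Itgb8 stood above all 4 in every library.

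**Figure D1:**
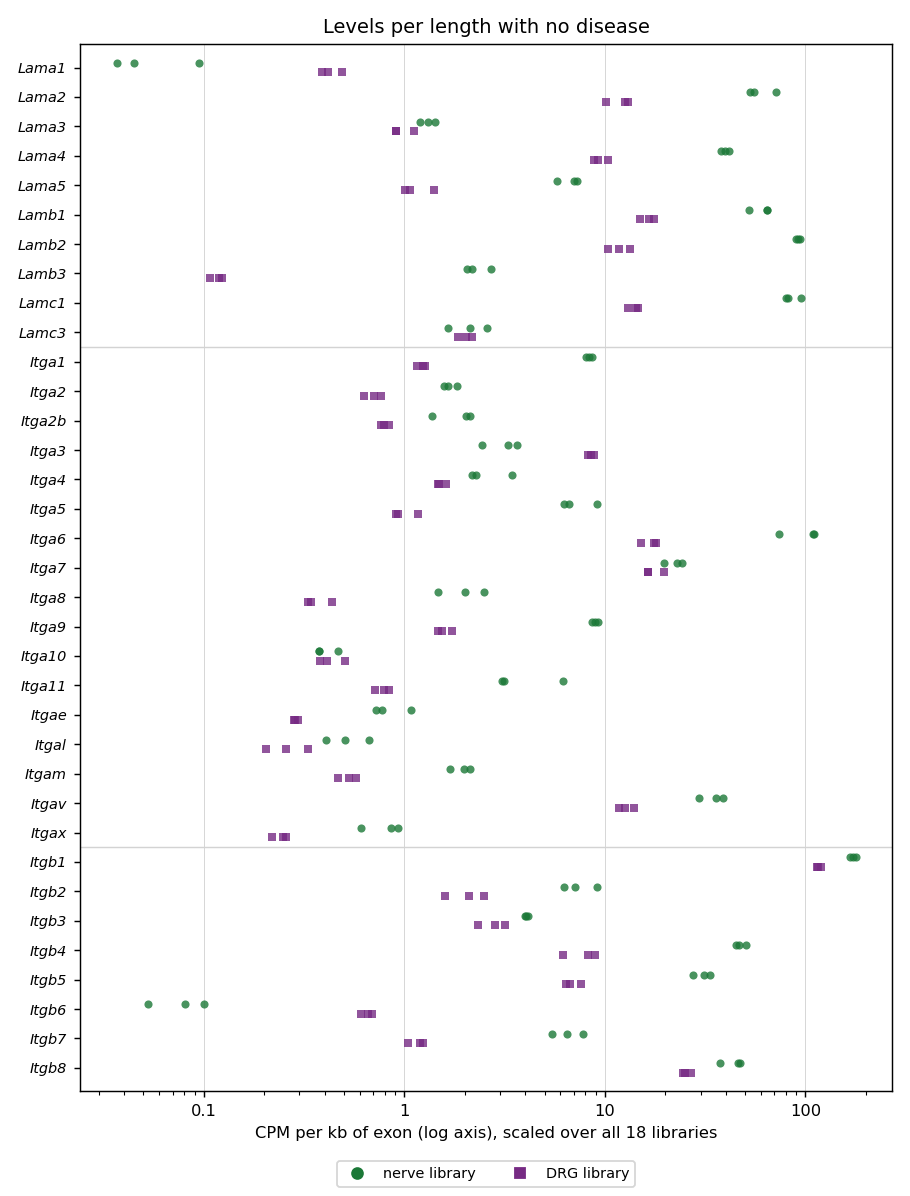
Levels with no disease of the tested members shown (rows: laminin chains, integrin α subunits, integrin β subunits) in CPM per kb of exon on a log axis; circles are the 3 nerve libraries and squares the 3 DRG libraries of each gene. Nerve libraries lie to the right of DRG libraries for most genes, and to the left for Lama1, Itga3 and Itgb6.

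The 3 members lower in nerve were Lama1, an α chain of embryonic basement membranes, Itga3, a laminin receptor α subunit, and Itgb6, an epithelial partner of Itgav. Itga3 was at 13.9, 18.8 and 20.8 CPM in nerve and 50.7, 48.9 and 47.2 CPM in DRG (-1.46 ± 0.27, adjusted p = 0.00012). Lama1 (0.917, 0.356 and 0.436 CPM in nerve, 4.75, 4.03 and 3.77 in DRG, -2.81 ± 0.48, adjusted p = 6.75e-05) and Itgb6 (0.573, 0.711 and 0.374 CPM in nerve, 4.92, 4.67 and 4.30 in DRG, -3.08 ± 0.45, adjusted p = 1.15e-05) were near the detection limit in nerve. The largest difference the other way was that of Lamb3, a β chain of epithelial basement membranes (4.30 ± 0.24), and Lamb2 was also far higher in nerve (2.96 ± 0.18). Itga7 (0.35 ± 0.24, adjusted p = 0.187), Itga10, Lamc3 and Lama3 had no called difference.

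At peak disease in nerve the group split. Of 36 members, 10 rose and 12 fell, where 24.7% of all genes tested were called (13.9% higher, 10.8% lower), with a median log2 change of -0.0339 for members and 6.33e-05 over all genes. Among laminin chains, Lama2 and Lamb1 rose, and those that fell included Lama3, Lamb2, Lamb3 and Lamc3. Among α subunits, Itga2, Itga4, Itga10 and Itgax rose and Itga1, Itga2b, Itga3, Itga9 and Itga11 fell. Among β subunits, Itgb1, Itgb2, Itgb3 and Itgb8 rose and Itgb4 and Itgb7 fell. The count of falls rested on single libraries: it was 4 without peak replicate 1 and 5 without no disease replicate 2 or 3. Without no disease replicate 1, 9 members rose and 10 fell, and the calls of Lamb1, Lamc3, Itga1, Itga10 and Itgb7 were lost.

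**Figure D2:**
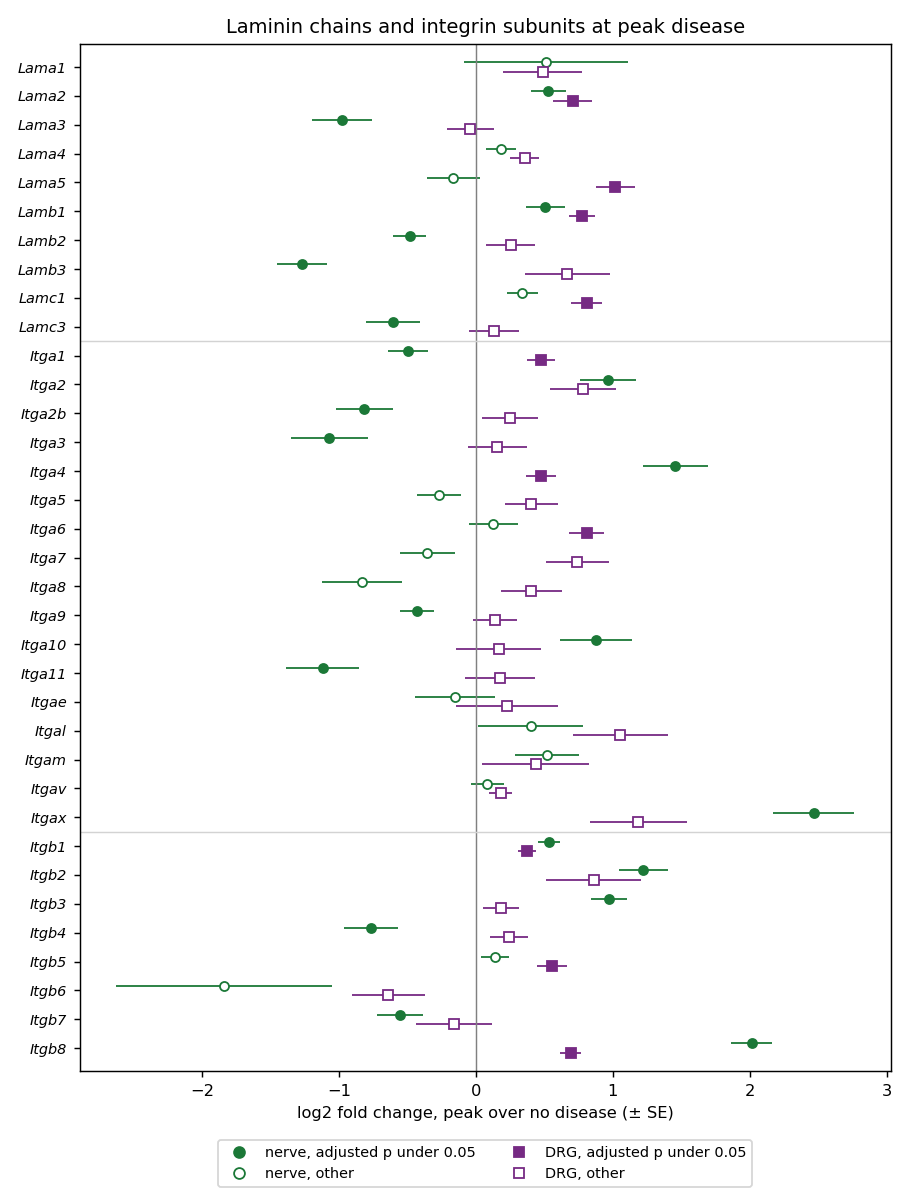
Log2 fold change at peak over no disease (x axis, bars ± SE) of the tested members shown in nerve (circles) and DRG (squares), with filled symbols for an adjusted p under 0.05 in edgeR. Nerve symbols lie on either side of 0, from -1.84 for Itgb6, not called, to 2.47 for Itgax, whereas all 10 called DRG symbols lie to the right of 0.

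The major laminin chains of nerve moved in opposite directions. Lamb1 stood at 512, 653 and 662 CPM with no disease and 977, 689.7 and 927 CPM at peak (0.51 ± 0.14, adjusted p = 0.0266), and Lama2 at 1151, 924 and 890.1 CPM against 1619, 1385 and 1276 CPM (0.53 ± 0.13, adjusted p = 0.0133). Lamb2, the alternative β chain, was at 565, 559.8 and 577 CPM with no disease and 412, 329 and 475 CPM at peak (-0.49 ± 0.12, adjusted p = 0.0153). For each of these 3 chains the peak libraries did not overlap those with no disease. The share of all genes with separate groups was not counted, so here and below such separation only describes the libraries and adds nothing to a call. Lamc1, the γ chain of most laminins, was at 778, 691 and 685 CPM and then 1017, 822 and 883 CPM, short of the threshold (0.34 ± 0.11, adjusted p = 0.0557). Lama4, an α chain of vessels and Schwann cells (0.18 ± 0.11, adjusted p = 0.242), and Lama5, an α chain of epithelia and vessels (-0.17 ± 0.19, adjusted p = 0.569), were not called. The calls of Lamb1 and Lama2 were lost in 4 and 3 of the 6 fits without 1 library, peak replicate 1 and no disease replicate 2 in both cases, with adjusted p up to 0.0932 and 0.0556, and that of Lamb2 held in each such fit.

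Of the summed CPM per kb of laminin β chains in nerve, Lamb2 held 59.5% ± 3.12 with no disease (SD, n = 3), 43.1% ± 2.46 at peak and 50.9% ± 1.02 at recovery, and Lamb1 held 39.0% ± 3.39, 56.3% ± 2.35 and 47.9% ± 1.07. Lamb1 exceeded Lamb2 in all 3 peak libraries and in none of the 3 with no disease. In DRG, Lamb1 already held the larger share with no disease (57.8% ± 2.36), and 66.2% ± 5.77 at peak. Lama2 held 55.3% ± 3.43 of the α chains in nerve with no disease and 62.4% ± 4.75 at peak. These shares are descriptions, with no test.

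**Figure D3:**
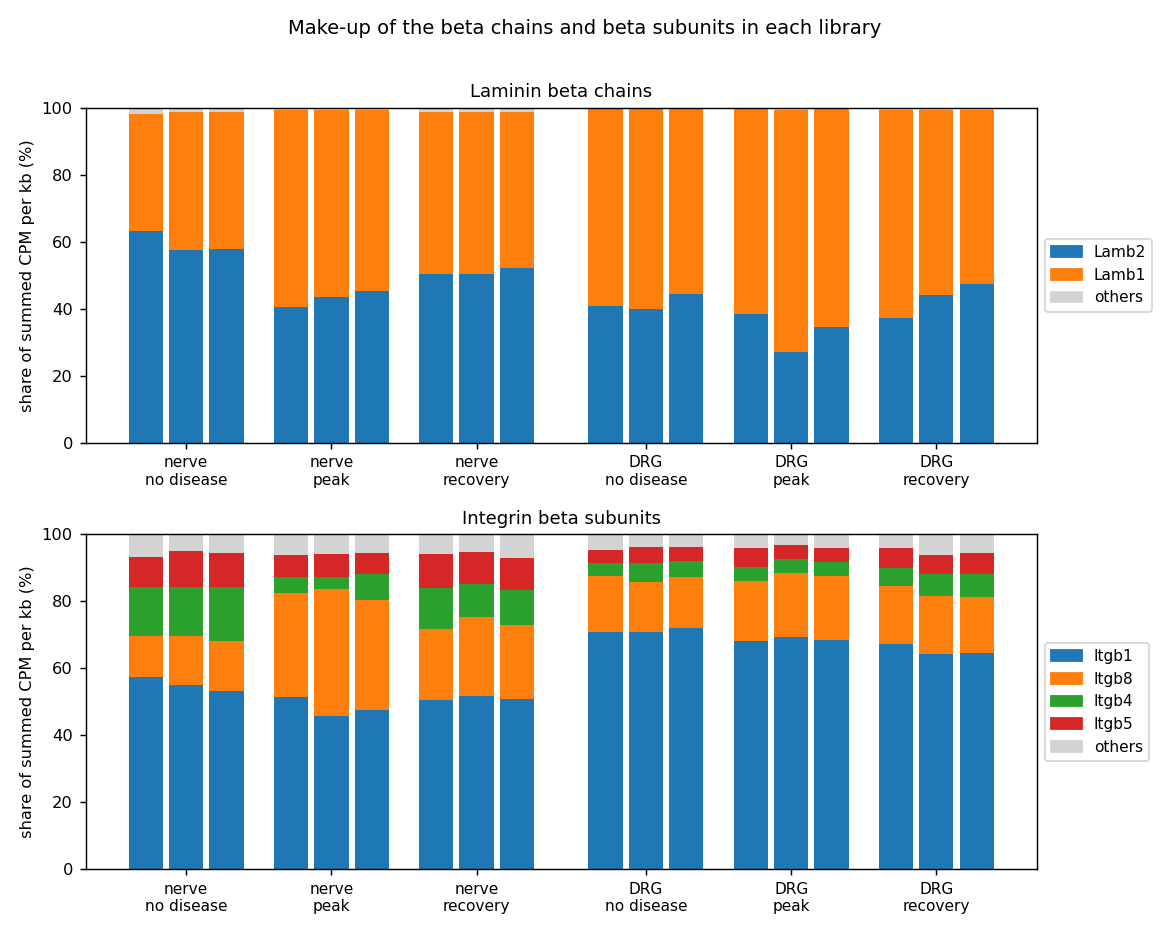
Make-up of the laminin β chains (top) and integrin β subunits (bottom) in each of the 18 libraries, as percent of the summed CPM per kb of exon; each bar is 1 library, in order of replicate number. In nerve the Lamb1 part and the Itgb8 part are larger at peak than with no disease, and the Itgb4 part is smaller.

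The epithelial chains Lama3 and Lamb3 and the laminin receptor subunits Itga3 and Itgb4 all fell. Lamb3 was at 17.6, 14.8 and 14.1 CPM with no disease and 8.26, 4.96 and 6.02 CPM at peak (-1.27 ± 0.18, adjusted p = 0.000969). Itga3 was at 13.7, 19.3 and 21.6 CPM and then 8.12, 5.41 and 12.2 CPM (-1.07 ± 0.28, adjusted p = 0.0205). Itgb4 was at 314, 337 and 367 CPM and then 168, 152 and 279 CPM (-0.77 ± 0.20, adjusted p = 0.0188). In each case all peak libraries lay below all libraries with no disease. Lama3 fell by a similar amount (-0.98 ± 0.22, adjusted p = 0.00978). The calls of Lamb3 and Lama3 held in every fit without 1 library, while those of Itga3 and Itgb4 were each lost in 3 of these 6 fits, without peak replicate 1 and without no disease replicate 2 or 3. Itga6, the α partner of Itgb4, was not called: it was at 660.4, 1013 and 1034 CPM with no disease and 996, 796 and 1164 CPM at peak, with overlapping groups (0.13 ± 0.18, adjusted p = 0.643). Itgb4 held 15.2% ± 0.818 of the β subunits per kb with no disease and 5.49% ± 2.14 at peak.

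Markers of other cells moved over the same stages. The 5 perineurium markers, all with counts, summed to 956 to 1035 CPM in nerve with no disease and 530.0 to 767 CPM at peak, and the 7 endothelium markers to 418 to 448 and 131 to 339.8 CPM. The 9 Schwann cell markers summed to 15567 to 28454 CPM with no disease and 13791 to 22694 CPM at peak, ranges that overlap. They did not move as a list: 3 were called higher and 0 lower, with a median log2 change of -0.292. Over all genes tested, 13.9% were called higher and 10.8% lower. The 6 pericyte and smooth muscle markers summed to 718 to 1023.5 and 416 to 719.7 CPM, and the 10 sensory neuron markers to 107 to 459 and 54.1 to 73.8 CPM. The 8 skeletal muscle markers summed to 505 to 1567 CPM with no disease and 10.5 to 175 CPM at peak. The part of these cells in the falls was not tested.

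Among receptors of collagen, Itga2 rose and Itga1 and Itga11 fell. Itga11, a fibrillar collagen receptor of fibroblasts, was at 31.4, 16.6 and 16.3 CPM with no disease and 11.4, 7.47 and 10.7 CPM at peak (-1.12 ± 0.26, adjusted p = 0.0126), with the highest value in the library rich in neuron markers. Without that library its change was smaller, -0.73, and still called (adjusted p = 0.0242). Itga2 rose by 0.96 ± 0.20 (adjusted p = 0.00772), Itga10 by 0.88 ± 0.26 (adjusted p = 0.0356), and Itga1 was at -0.50 ± 0.15 (adjusted p = 0.0333). Itga10 and Itga1 each lost their call in 5 of the 6 fits without 1 library, all but that without peak replicate 2 for Itga10 and that without peak replicate 3 for Itga1, with adjusted p up to 0.101 and 0.108. The fibroblast markers, 5 of 5 with counts, summed to 12713 to 15242 CPM with no disease and 18679 to 22744 CPM at peak. This sum moved opposite to Itga11, but much of it was collagen: Col3a1 alone had a mean of 5450 CPM and then 9588 CPM. Of the 5 markers, 3 were called higher and 1 lower, where 13.9% of all genes tested were higher and 10.8% lower. Exons of Itga10 overlap those of Gm42957.

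Itgb8 had the largest rise of any abundant member. It was at 408, 522 and 538 CPM in nerve with no disease and at 1742, 2361 and 1823 CPM at peak, a log2 change of 2.01 ± 0.15 (adjusted p = 2.33e-05). Every peak library lay above every library with no disease by a wide margin, and the call held under all 12 alternatives, with log2 changes from 1.85 to 2.10. Its only known α partner, Itgav, was at 311, 396 and 434 CPM and then 416, 419 and 374 CPM, with overlapping groups (0.08 ± 0.12, adjusted p = 0.657). The share of Itgb8 among β subunits per kb in nerve was 13.9% ± 1.59 with no disease, 33.9% ± 3.38 at peak and 22.3% ± 1.21 at recovery. The 5 satellite glia markers summed in nerve to 1897 to 2178 CPM with no disease, 4648 to 5677 CPM at peak and 2508 to 2985 CPM at recovery. They did not rise as a list: at peak 2 were called higher and 1 lower, with a median log2 change of -0.244. The 5 proliferation markers summed to 17.5 to 23.1, 191 to 302 and 38.6 to 41.5 CPM, and all 5 were called higher at peak. The part of either marker group in the rise of Itgb8 was not tested. The other Itgav partners differed: Itgb3, also the platelet β subunit, stood at 23.3, 24.4 and 25.2 CPM and then 42.5, 46.9 and 53.5 CPM (0.97 ± 0.13, adjusted p = 0.000738), whereas Itgb5 was not called (0.14 ± 0.10, adjusted p = 0.367). Itgb6 remained near 0 in nerve, at 0.0475, 0.399 and 0.0418 CPM at peak.

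Itga2b, the platelet partner of Itgb3, fell (-0.82 ± 0.21, adjusted p = 0.0171) where Itgb3 rose. Its call was lost in 4 of the 6 fits without 1 library, those without peak replicate 1 or 2 and without no disease replicate 2 or 3. Platelet markers, 6 of 7 with counts in no disease nerve and 5 of 7 at peak, where Gp6 and Gp9 were at 0, summed to 17.0 to 29.3 and 12.2 to 18.5 CPM. Itgb1 rose with little spread, from 716, 726 and 702 CPM to 1056, 1061 and 982 CPM (0.53 ± 0.08, adjusted p = 0.00117), with no overlap and with the call kept in all 12 alternatives.

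Of the leukocyte integrins, 3 rose in nerve at peak. Itgax, the α subunit known as CD11c on dendritic cells and some macrophages, had 4.08, 3.01 and 4.65 CPM with no disease and 20.3, 30.2 and 15.4 CPM at peak (2.47 ± 0.30, adjusted p = 0.000347). Its β partner Itgb2, shared by all integrins of the CD11 group, had 27.5, 19.5 and 22.3 CPM and then 57.5, 63.3 and 41.8 CPM (1.22 ± 0.18, adjusted p = 0.000995). Itga4, which binds VCAM1 and fibronectin, had 47.3, 32.5 and 31.6 CPM and then 94.0, 134 and 78.7 CPM (1.46 ± 0.24, adjusted p = 0.00186). In all 3 genes peak replicate 2 was the highest library and the groups did not overlap. The remaining Itgb2 partners were not called: Itgam, the CD11b subunit (0.52 ± 0.23, adjusted p = 0.134), and Itgal, the subunit of LFA-1 (0.40 ± 0.39, adjusted p = 0.486). Itgb7, a β partner of Itga4 and Itgae on lymphocytes, fell (-0.55 ± 0.17, adjusted p = 0.0354), and Itgae was not called (-0.15 ± 0.29, adjusted p = 0.743). The call of Itgb7 was lost without peak replicate 1 or 2 or no disease replicate 1 or 3, with adjusted p up to 0.105.

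Macrophage markers, 10 of 10 with counts, summed to 745 to 1163 CPM with no disease and 1301 to 2099 CPM at peak, the highest again in peak replicate 2. The 5 dendritic cell markers summed to 29.5 to 33.9 and 34.7 to 39.5 CPM, and the 9 T and NK cell markers to 2.10 to 5.27 and 18.3 to 30.8 CPM. Their part in the rise of the leukocyte integrins was not tested.

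**Figure D4:**
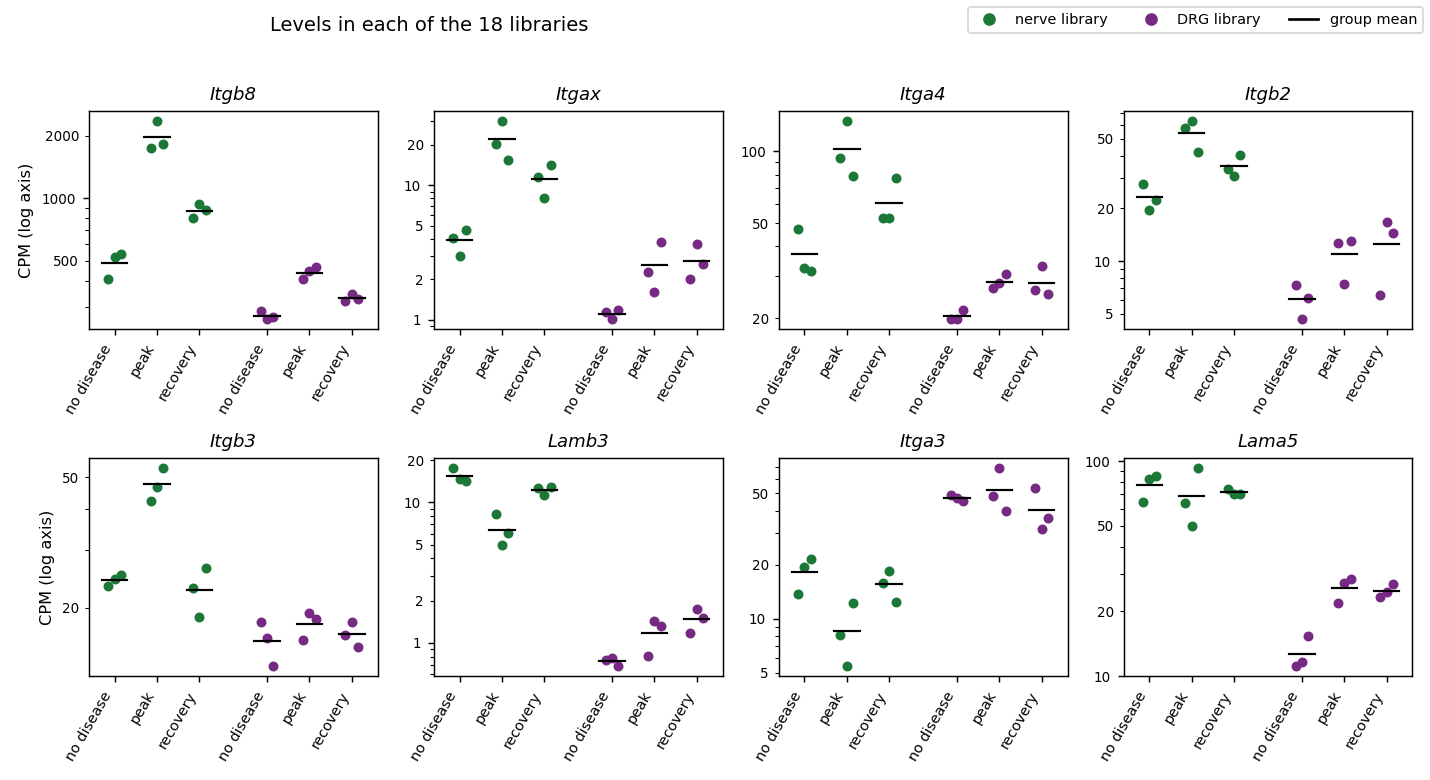
CPM in each library (log axis), scaled within each tissue, of 8 members; green points are nerve libraries, purple points DRG libraries and black lines group means. In nerve, Itgb8, Itgax, Itga4, Itgb2 and Itgb3 are highest at peak and Lamb3 and Itga3 lowest, and in DRG Lama5 is higher at peak and recovery than with no disease.

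At recovery most members had no called difference from no disease in nerve. Only Itgb8 and Itgax were called, both higher, where 0.909% of all genes tested were called and 0.577% were higher, and the median log2 change of members was -0.0441, against 0.00601 over all genes. Itgb8 was at 798, 939 and 877 CPM, above all libraries with no disease and below all peak libraries (0.83 ± 0.15 over no disease, adjusted p = 0.0325). Itgax was at 11.5, 8.05 and 14.2 CPM, likewise between the other stages without overlap (1.51 ± 0.30, adjusted p = 0.0481). Leaving out any 1 of the 6 libraries ended both calls, with adjusted p up to 0.152 for Itgb8 and 0.193 for Itgax. Macrophage markers at recovery summed to 989.8 to 1249 CPM.

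From peak to recovery, 9 members fell and 3 rose, where 16.5% of all genes tested were called (6.46% higher, 10% lower). This comparison shares its peak libraries with the one at peak. The falls were those of Itgb8 (-1.18 ± 0.15, adjusted p = 0.000895), Itgb3 (-1.07 ± 0.13, adjusted p = 0.000895), Itgax, Itga4, Itga2, Itgb2, Lama2, Lamc1 and Itgb1. Itgb3, at 23.0, 18.7 and 26.5 CPM in recovery, overlapped the libraries with no disease, and so did Itgb1 at 703, 761 and 749.6 CPM. The rises were those of Lama3 (0.97 ± 0.22, adjusted p = 0.0149), Lamb3 (0.93 ± 0.18, adjusted p = 0.00858) and Itga11 (0.96 ± 0.26, adjusted p = 0.0326). The call of Itga11 was lost in every fit without 1 library but that without peak replicate 3, with adjusted p up to 0.115. That of Lama3 was lost without peak replicate 1 or recovery replicate 2. Lamb2 (0.15 ± 0.12, adjusted p = 0.417) and Itgb4 (0.42 ± 0.20, adjusted p = 0.172) were not called. Rises numbered 1 without peak replicate 1 or recovery replicate 2 and 10 without peak replicate 3, and falls numbered 4 without recovery replicate 2 and 5 without recovery replicate 1.

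In DRG at peak all called members rose. Of 36, 10 were higher and none lower, where 7.21% of all genes tested were called (3.74% higher, 3.47% lower), and the median of members was 0.404, against -0.00112 over all genes. The laminin chains Lama2, Lama5, Lamb1 and Lamc1, the α subunits Itga1, Itga4 and Itga6, and the β subunits Itgb1, Itgb5 and Itgb8 made up the 10. Without no disease replicate 1 or 3 the count was 5 or 6.

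Lama5 had the largest called rise in DRG, from 11.1, 11.7 and 15.4 CPM with no disease to 21.9, 27.1 and 28.4 CPM at peak (1.02 ± 0.14, adjusted p = 0.0047). Lamc1 went from 103, 117 and 114 CPM to 213, 181 and 192 CPM (0.81 ± 0.11, adjusted p = 0.0047), and Lamb1 from 142, 167 and 158 CPM to 233, 282 and 285 CPM (0.78 ± 0.09, adjusted p = 0.00237). No peak library of these 3 chains overlapped those with no disease. Lama2 rose as well, from 159, 205 and 198 CPM to 338, 261 and 317 CPM (0.71 ± 0.14, adjusted p = 0.0179). Its call was lost without peak replicate 1 or 3 or no disease replicate 1 or 3, with adjusted p up to 0.0841. Lamb2 was not called (0.25 ± 0.18, adjusted p = 0.424), nor was Lama4 (0.36 ± 0.11, adjusted p = 0.0722). Of the laminin receptors, Itga6 was at 131, 152 and 156 CPM and then 205, 269 and 296 CPM (0.81 ± 0.13, adjusted p = 0.00785), and its partner Itgb1 at 450.1, 451 and 471 CPM and then 569, 591 and 621 CPM (0.38 ± 0.07, adjusted p = 0.00972). The groups of both genes were separate. Itga7 spread widely at peak, at 168, 305 and 209 CPM against 154, 127 and 127 CPM, and was not called (0.74 ± 0.23, adjusted p = 0.0783). Skeletal muscle markers, 8 of 8 with counts, also varied between DRG libraries, from 14.3 to 700.2 CPM with no disease and 11.1 to 85.7 CPM at peak.

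Itgb8 rose in DRG too, from 286, 260.4 and 267 CPM to 406, 443 and 465 CPM (0.69 ± 0.08, adjusted p = 0.00167), the smallest adjusted p among members in this comparison. Itga4 was called (0.48 ± 0.11, adjusted p = 0.0322) but lost its call without any 1 of the 6 libraries. The leukocyte subunits Itgax (1.18 ± 0.35, adjusted p = 0.0694), Itgal (1.05 ± 0.35, adjusted p = 0.0916) and Itgb2 (0.86 ± 0.35, adjusted p = 0.157) were not called. Over the same stages macrophage markers summed to 142 to 143 and 220.0 to 307 CPM, Schwann cell markers to 4643 to 6494 and 8508 to 9383 CPM, fibroblast markers to 1167 to 1361 and 1193 to 2711 CPM, and sensory neuron markers to 10679.9 to 12878 and 8556 to 9722 CPM. The part of these cells in the rise of the members was not tested.

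At recovery in DRG, Lama5, Lamb1, Itga1, Itga6 and Itgb5 remained called, all higher than with no disease, where 2.89% of all genes tested were called (2.09% higher, 0.8% lower). The median of members was 0.347, against -0.00937 over all genes. Lama5 was at 23.3, 24.6 and 26.8 CPM, as at peak and apart from all libraries with no disease (0.97 ± 0.14, adjusted p = 0.0173). Itga6 was at 221, 259 and 246 CPM (0.72 ± 0.13, adjusted p = 0.028), and Itgb5, an Itgav partner that binds vitronectin, showed 0.66 ± 0.11 (adjusted p = 0.0237). Itgb1, at 461, 471 and 463 CPM, was no longer called (0.02 ± 0.07, adjusted p = 0.875). The count of 5 depended on the libraries: it was 17 without recovery replicate 1, 1 when no disease replicate 3 was left out, and 0 when any of recovery replicates 2 and 3 or no disease replicates 1 and 2 was. Leukocyte members split the recovery libraries, with Itgb2 at 6.39 CPM in recovery replicate 1 and 16.8 and 14.4 CPM in the other 2, where the 6 neutrophil markers summed to 49.3, 458 and 395 CPM.

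Between recovery and peak in DRG edgeR called no member in either direction, where 0.137% of all genes tested were called (0.0343% higher, 0.103% lower). At an unadjusted p under 0.05, 2 members were higher and 6 lower, and DESeq2 called 0 higher and 4 lower. The shares of all genes at that p or by DESeq2 were not counted, so these counts have no background beside them. Without recovery replicate 1 edgeR called 5 lower. The smallest adjusted p belonged to Itgb8 (-0.41 ± 0.08) and Itgb1 (-0.35 ± 0.07), at 0.0823 each.

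The response at peak differed between nerve and DRG for 18 of 36 members, 3 with a higher and 15 with a lower change in nerve, where 15.9% of all genes tested were called (6.53% higher, 9.36% lower). The members' median difference was -0.587, against -0.0823 over all genes. Itgb8 changed more in nerve (difference 1.26 ± 0.17, adjusted p = 0.00021), as did Itga4 (0.91 ± 0.29, adjusted p = 0.0457) and Itgb3 (0.73 ± 0.19, adjusted p = 0.0182). Itgax rose in nerve and was not called in DRG, but this difference was not called (1.23 ± 0.50, adjusted p = 0.108). Lamb3 had the largest difference of the other sign (-2.01 ± 0.35, adjusted p = 0.00173). Lama5 was called higher in DRG with no call in nerve (difference -1.25 ± 0.25, adjusted p = 0.00462), and Itga1 rose in DRG and fell in nerve (-1.04 ± 0.18, adjusted p = 0.0019). Itga7, called in neither tissue alone, differed (-1.16 ± 0.33, adjusted p = 0.029), with skeletal muscle markers in nerve at 505 to 1567 CPM with no disease and 10.5 to 175 CPM at peak, whose part in this was not tested. Itga6, Lamc1 and Itgb5 rose in DRG with no call in nerve and differed between tissues, whereas Itgb1 (0.09 ± 0.10, adjusted p = 0.556), Lama2 (-0.24 ± 0.21, adjusted p = 0.465) and Lamb1 (-0.33 ± 0.17, adjusted p = 0.197) showed no called difference. Of 17 alternatives, the called difference was kept in only 4 for Lamc1, 6 for Itga4 and 7 for Itga6 and Itgb5. The count of lower changes was 6 without DRG no disease replicate 1 or 3, 7 without nerve peak replicate 2, 8 without nerve peak replicate 1 or DRG no disease replicate 2, and 9 without nerve no disease replicate 2 or 3 or DRG peak replicate 1, and 11 without nerve no disease replicate 1. The count of higher changes was 1 without DRG no disease replicate 1.

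At recovery the tissue difference was called by edgeR for no member, where 0.451% of all genes tested were called (0.131% higher, 0.32% lower). At an unadjusted p under 0.05, 1 member was higher and 12 were lower in their nerve change, and DESeq2 called 0 higher and 8 lower. Shares of all genes at that p or by DESeq2 were not counted, so these counts cannot be set against them. Without DRG recovery replicate 1 edgeR called 5 lower, and without nerve no disease replicate 1 it called 2 lower. The smallest adjusted p values were those of Itga5 (-1.13 ± 0.25, adjusted p = 0.0671), the fibronectin receptor subunit, and Lama5 (-1.11 ± 0.25, adjusted p = 0.0696).

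Genes that work with these members were counted in 4 lists. Of 15 basement membrane partners in nerve at peak, 4 rose and 4 fell (median log2 change -0.126, over all genes 6.33e-05), where 13.9% of all genes tested were higher and 10.8% lower. Hspg2, the perlecan core protein, went from 825 ± 66.8 to 1430.1 ± 30.5 CPM (0.79 ± 0.09, adjusted p = 0.000297), and Col18a1 (1.21 ± 0.13, adjusted p = 0.000214) and the laminin linker Nid2 (0.77 ± 0.10, adjusted p = 0.000424) also rose, whereas the fibulin Fbln1 fell (-1.06 ± 0.19, adjusted p = 0.00302). In DRG at peak 9 of the 15 rose and none fell (median 0.758), where 3.74% of all genes were higher and 3.47% lower, among them Hspg2 (1.43 ± 0.13, adjusted p = 0.000625) and the collagen chain Col4a2 (0.96 ± 0.11, adjusted p = 0.00173). At recovery 6 of the 15 were called higher in DRG, against 2.09% of all genes, and 2, Col4a4 and Col4a5, lower in nerve, against 0.332% of all genes.

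Of 15 tested genes of the dystroglycan complex and other laminin receptors, 2 rose and 4 fell in nerve at peak (median -0.161), with 13.9% of all genes higher and 10.8% lower. Drp2, which links dystroglycan to periaxin in myelinating Schwann cells, fell from 2545 ± 134 to 1102 ± 132 CPM (-1.21 ± 0.12, adjusted p = 0.000125), Utrn (-0.56 ± 0.12, adjusted p = 0.00784) fell as well, and Dmd, the dystrophin gene related to Utrn, rose (0.64 ± 0.12, adjusted p = 0.00386). In DRG, dystroglycan itself, Dag1, rose at peak (0.69 ± 0.10, adjusted p = 0.00426) and was still higher at recovery (0.60 ± 0.09, adjusted p = 0.0211). Of 27 adhesion adaptors and kinases, 7 rose and 4 fell in nerve at peak (median 0.074), beside the same 13.9% and 10.8% of all genes, with Fblim1, a filamin-binding adaptor (1.57 ± 0.14, adjusted p = 5.61e-05), and the leukocyte kindlin Fermt3 (1.14 ± 0.24, adjusted p = 0.00716) among the rises. In DRG at peak 3 rose and 1 fell (median 0.125), beside 3.74% and 3.47% of all genes.

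Of 22 other integrin ligands, 8 rose and 5 fell in nerve at peak (median -0.101) and 8 rose with no falls in DRG (median 0.588). Over all genes tested, 13.9% were higher and 10.8% lower in nerve, and 3.74% and 3.47% in DRG. Tnc, or tenascin-C, a ligand of Itga9, went from 21.9 ± 10.1 to 189 ± 17.2 CPM in nerve (3.12 ± 0.30, adjusted p = 9.38e-05) while Itga9 itself was lower (-0.43 ± 0.12, adjusted p = 0.0282). The call of Itga9 was lost without peak replicate 1 or no disease replicate 2 or 3, with adjusted p up to 0.0872. Npnt, or nephronectin, the ligand of Itga8, went from 28.8 ± 2.50 to 9.76 ± 0.592 CPM (-1.56 ± 0.12, adjusted p = 2.9e-05), and Itga8 was at -0.83 ± 0.29 (adjusted p = 0.0634), short of the threshold.

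The authors' deposited table gives its own comparisons. At q under 0.05 the authors' deposited table has 8 members higher and 9 lower in nerve at peak, 17 of them also called here in the same direction. Lamb1, Itgb7, Itga10, Itga9 and Lamc3 were called here but not there, with the authors' q from 0.0522 for Lamb1 to 0.102 for Lamc3. For nerve at recovery the authors' deposited table has 4 higher and 2 lower, of which Itgb8 and Itgax were also called here, and Itga4, Itgb2, Itga5 and Lamb2 were not. In DRG at peak the authors' deposited table has 16 higher and 0 lower, with 10 called here as well, and at recovery 11 higher and 0 lower, with 5 called here. The share of all genes at q under 0.05 by the authors was not counted. The authors' member counts therefore cannot be set against it.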

How the data were processed

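Bulk RNA was sequenced from sciatic nerve and DRG L3-L5, 18 libraries in 6 groups of 3. The submitters' processing notes name STAR 2.6.1a, kallisto 0.44.0, Bowtie2 and the builds GRCm38 and mm10; which step used each of them, how reads were counted and whether strand was used were not stated there. The authors deposited raw counts per gene, for 28684 genes. The authors' normalised sheet holds a signal proportional to those counts within each library (to a relative 5.11e-15). The authors also deposited log2 ratios with p-values and q-values for their own comparisons, which were only counted beside the results here.

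Genes with at least 10 counts in at least 3 of the 18 libraries were tested (17495 in nerve, 17505 in DRG and 17514 over all libraries, after leaving out genes with no counts in a tissue). Counts were scaled by TMM and tested with edgeR 4.0.16 (quasi-likelihood, glmQLFit and glmQLFTest, with limma 3.58.1, R 4.3.3), fitting each tissue on its own 9 libraries and the tissue comparisons in 1 fit of all 18. Benjamini-Hochberg adjusted p under 0.05 was called. SE was derived as the size of the log2 fold change divided by the square root of the F statistic of the quasi-likelihood test. CPM were scaled within a tissue, and for levels compared between tissues over all 18. CPM per kb used the union exon length from GENCODE on GRCm38, found for 28578 of the 28684 IDs. Exons of Itga4, Itga7, Itga10, Itgam, Itgav and Itgb4 overlap those of another gene, so their reads may be shared. Total counts of 13686465 to 23435562 limit low genes most.

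Members were named with full values where called with a log2 change of at least 1 in size and a mean of at least 1 CPM in a group, or where among the 4 laminin chains or 4 integrin subunits highest per length in a tissue; of each partner list, up to 4 called genes with the smallest p. Itga2, Itga10, Itga1, Itgam and the other members with values in the text were named beside these after their values were seen. The members and lists were chosen with earlier results of these data known. Alternatives were relative log expression (RLE) size factors, DESeq2 1.42.0, filterByExpr, no filter, a replicate block, all 18 libraries in 1 fit, and leaving out each library. The main edgeR fits at peak, in nerve, in DRG and for the tissue difference, were run on simulated data. Changes were planted there only in genes with a higher mean count, so the run does not cover low members. Its outcome is not given here. The other comparisons and the alternatives were not run on simulated data. Promoter letters are from RefSeq, GRCm38.p6. Tables were made with Python 3.11.15. A tested member counted in the totals is not reported by name here or drawn.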

Additional observations from a re-analysis of the deposited data

Results flagged for a closer look

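The change at peak differed between nerve and DRG for 18 members, by the interaction of tissue and stage (edgeR, quasi-likelihood, Benjamini-Hochberg adjusted p under 0.05); each value is the log2 change in nerve minus that in DRG. Among integrin β subunits, Itgb8, which activates latent TGF-β with Itgav, differed by 1.26 and Itgb3 by 0.73, both higher in nerve, while Itgb4, the partner of Itga6, differed by -1.07 and Itgb5 by -0.48. Itga4, the VCAM1 receptor subunit, was the only α subunit with a called positive difference, 0.91.

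Among the other α subunits, the laminin receptors differed by -1.29 for Itga3, -0.74 for Itga6 and -1.16 for Itga7, and the collagen receptors by -1.04 for Itga1 and -1.37 for Itga11. Itga8 differed by -1.30, Itga9 by -0.63 and the platelet subunit Itga2b by -1.13. Of the laminin chains, Lamb3 differed by -2.01, Lama5 by -1.25, Lama3 by -1.01, Lamb2 by -0.80 and Lamc1 by -0.54. Lamb3, Lama5, Itga2b, Itgb4, Itgb8 and Itga1 kept this call in all 17 alternatives, and the other 12 lost it in at least 1. Of these 12, Lamc1 and Itga9 kept it in only 4, Itga4 in 6, Itga6 and Itgb5 in 7, and the rest in 9 to 16.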

How the results depend on the processing

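No call of a named member reversed its direction under any alternative: of 101 calls, DESeq2 kept 101, RLE 96, filterByExpr 100, no filter 97 and the replicate block 89, the fit of all 18 libraries kept 47 of 51, and the fits without 1 library kept 501 of 714. With the replicate block, calls higher and lower were 11 and 10 in nerve at peak, 1 and 0 at recovery, 3 and 6 from peak to recovery, 9 and 0 in DRG at peak, 5 and 0 at recovery, 28 and 3 between tissues with no disease, 2 and 13 for the tissue difference at peak, and 0 and 1 at recovery. The labels do not say whether libraries of the same replicate number share an animal, and the main fits treated all libraries as unpaired. Correlations of deviations between such libraries ran from -0.283 to 0.256. Each deviation is from a mean of only 3 libraries, so these values cannot settle the pairing.

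In nerve at recovery against no disease, 2 members were called higher, against 1 with RLE, filterByExpr or the replicate block, and 0 without any 1 library; 0 were lower, against 1 with DESeq2, no filter or all 18 libraries in 1 fit. From peak to recovery in nerve, 3 were higher, against 7 with DESeq2, no filter or all 18 libraries, and 1 to 10 without 1 library; 9 were lower, against 6 with the replicate block and 4 to 9 without 1 library. In nerve at peak, the 10 higher ran from 7 to 10 and the 12 lower from 4 to 15 without 1 library.

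In DRG at peak the 10 higher were 15 with DESeq2 and 5 to 10 without 1 library. At recovery the 5 higher were 12 with DESeq2, 11 with no filter, 7 with filterByExpr, 3 with all 18 libraries and 0 to 17 without 1 library. From peak to recovery in DRG 0 were lower, against 4 with DESeq2, 2 with no filter and 0 to 5 without 1 library, the 5 without recovery replicate 1. Between tissues with no disease the counts ran from 28 to 29 higher and stayed at 3 lower. For the tissue difference at peak, 3 higher ran from 1 to 3 and 15 lower from 6 to 14 without 1 library, with 12 lower under RLE and 11 with no filter. At recovery 0 were lower, against 8 with DESeq2, 1 with the replicate block and 0 to 5 without 1 library, the 5 without DRG recovery replicate 1. The cause of these shifts was not tested, and shares over all genes were not counted under the alternatives. With 3 libraries a group, and few counts for genes such as Itgal, Itgae, Itgb6 and Lama1, changes of moderate size in low members may be missed.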
